A study of Mus musculus with 4 samples.

Results

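The genes described here are 31 DNA replication and mitosis genes of the mouse, 10 that act in S-phase and 21 that act in G2 and mitosis (G2/M). They were taken by symbol from the name column of the deposited FPKM table and joined to the count table by gene identifier. All 31 were found among the 55335 genes of the count table, and all 31 were among the 17262 genes with enough counts to test. Poly(A) RNA was sequenced from cultured spermatogonial stem cells (SSCs), which renew themselves and give rise to sperm, in 2 libraries of Tex11PM/Y cells and 2 libraries of wild-type (WT) cells. The label Tex11PM/Y refers to Tex11, a gene of the X chromosome whose product helps homologous chromosomes form crossovers; what PM stands for is not spelled out. Both genotypes had the C57/BL6*DBA2 strain background, came from mice of postnatal day 10, were cultured with regular passages and were collected on a cell sorter, with no gate stated. The labels do not give the number of mice, lines or cultures behind the libraries, so every p-value measures only the spread between these samples, which may be technical. Both Tex11PM/Y columns carry the same replicate number and are called library A and library B.

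Before a cell divides, the helicase that unwinds DNA is loaded on replication origins, nucleotides are made, and the sliding clamp PCNA tethers polymerases to the template. Genes for these steps are switched on around the G1/S boundary by E2F factors, which pocket proteins of the retinoblastoma family hold back. Genes for mitosis are switched on later, through promoters that carry CCAAT boxes bound by NF-Y and a cell cycle homology region (CHR) bound by the MuvB complex. Cultured SSCs divide by mitosis and do not enter meiosis while they self-renew, so both sets of genes serve their ordinary cell cycle.

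The libraries held 19306140 (A), 19804951 (B), 19047148 (WT replicate 1) and 19396809 (WT replicate 2) counts. Tex11 had 22.7 and 9.32 CPM (counts scaled to library size by TMM) in libraries A and B, against 66.4 and 126 CPM in WT replicates 1 and 2. Both Tex11PM/Y libraries were below both WT libraries, with a log2 fold change of -2.59 (SE 0.54) that did not pass over all genes (edgeR with Benjamini-Hochberg adjustment, adjusted p = 0.884). The germ cell markers Dazl and Ddx4 and the SSC marker Zbtb16 were present in all 4 libraries, Dazl at 1194 and 809.7 CPM in A and B and at 552 and 877 CPM in WT. Among the 14 SSC and germ cell markers listed, 7 had a log2 fold change above 0 and 7 below 0. In WT replicate 1, 7 of them were lowest, these 3 included, and 5 were highest, Gfra1, Ret and Etv5 included. The 20 fibroblast markers took 0.0647% and 0.672% of counts in A and B, against 1.71% and 0.532% in WT replicates 1 and 2. All 20 were lowest in library A and highest in WT replicate 1, so these libraries stand at opposite ends of the fibroblast signal. The 10 macrophage markers took 0.00254% and 0.117% in A and B and 0.0597% and 0.0488% in WT, and the Sertoli markers took at most 0.00322% in any library.

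The mean of the S-phase genes differed little between the 4 libraries, while that of the G2/M genes differed more. The mean of the 10 S-phase genes was 7.24 and 7.16 log2 CPM in A and B and 7.27 and 7.18 log2 CPM in WT replicates 1 and 2, a range of 0.11. The mean of the 21 G2/M genes was 6.85 and 6.50 log2 CPM in A and B and 5.97 and 6.63 log2 CPM in WT replicates 1 and 2, a range of 0.88. By this mean WT replicate 1 was the low library and library A the high one, with B and WT replicate 2 between them and 0.13 log2 apart. Gene by gene, library A was highest for 9 of the 21, a library that was highest for 35.0% of all genes tested. WT replicate 2 was highest for 8 and B for 4. Library A lay furthest above the gene's mean over the libraries for Cenpe (1.72 log2), Mki67 (1.66), Cenpf (1.58), Kif11 (0.99) and Bub1 (0.71). Of the 21 G2/M genes, 20 were lowest in WT replicate 1 (95.2%), a library that was lowest for 34.4% of all genes tested; Ccnb2 was the exception, lowest in library A. Of the 10 S-phase genes, 3 were lowest in WT replicate 1 and 6 were highest there. Since these are bulk samples, fewer dividing cells and less G2/M RNA per cell cannot be told apart. WT replicate 1 was also the library with the highest fibroblast marker share, and library A the one with the lowest; the part of either in the G2/M levels was not tested.

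**Figure D1:**
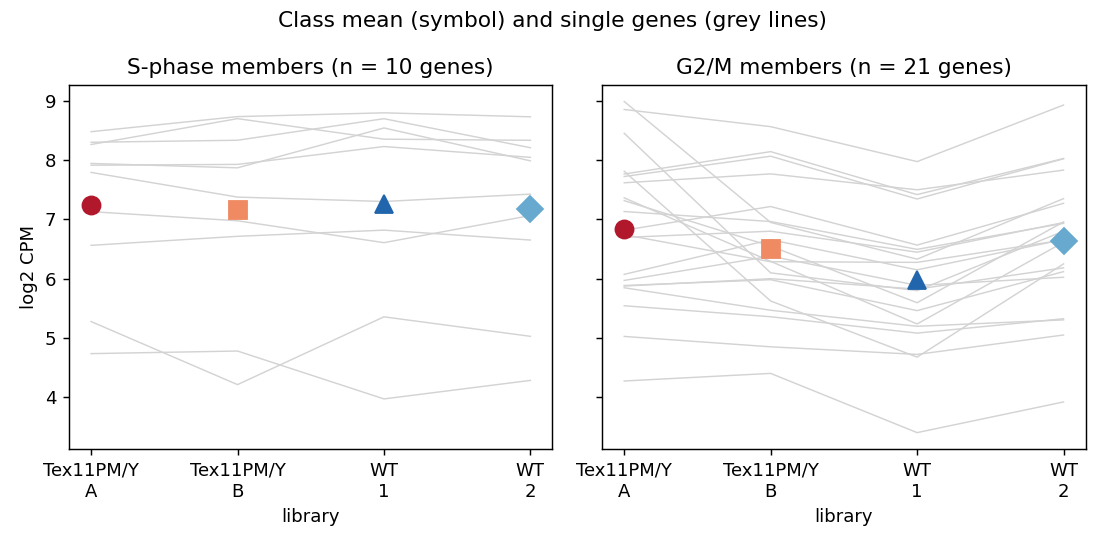
Mean log2 CPM (y axis) of the 10 S-phase genes, left, and the 21 G2/M genes, right, in the 4 libraries (x axis), Tex11PM/Y first; each grey line joins the values of 1 gene. The S-phase mean stays within 0.11 log2, and the G2/M mean is 5.97 in WT replicate 1 and 6.85 in library A.

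The difference between the classes within a library does not depend on how libraries are scaled. S-phase minus G2/M came to 0.39 and 0.67 log2 in A and B, and to 1.30 and 0.55 log2 in WT replicates 1 and 2. The genotypes therefore overlapped, with means of 0.53 ± 0.19 log2 in Tex11PM/Y and 0.92 ± 0.53 log2 in WT (SD, n = 2 each). Their difference, Tex11PM/Y minus WT, was -0.39, and it was -0.02 without WT replicate 1. With 2 libraries against 2, no two-sided exact permutation test can give a p under 0.33. Summed FPKM, a level per transcript length, showed the same low library: G2/M genes added up to 810.3 and 810.6 FPKM in A and B and to 495 and 820.3 FPKM in WT replicates 1 and 2. On this scale library A did not stand above B and WT replicate 2. Summed CPM, without division by length, was 3359 in A, 2468 in B and 2743 in WT replicate 2. FPKM and TPM scale the libraries differently: Mcm2 had 89.1 FPKM and 274 TPM in A, and 109 FPKM and 288 TPM in B. In WT replicate 2 it had 105 FPKM and 291 TPM, so TPM raised library A more than B or WT replicate 2. A sum of TPM was not made, and the FPKM sums alone do not settle the place of library A per transcript length. The S-phase genes added up to 582 and 616 FPKM in A and B and to 587 and 579.5 FPKM in WT.

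Promoters of the members were searched for the letters known from these control routes, and a few are shown because they hold such letters in both classes and include G2/M genes that varied much and little. RefSeq windows (GRCm38.p6) were found for 25 of the 31 genes; Mcm4, Ccna2, Aurkb, Cdc25c, Kif20a and Tpx2 were not matched. Each line gives the 150 bases before the RefSeq start, 5′ to 3′ on the gene's strand. Capitals mark CCAAT on either strand (ATTGG), the CHR letters TTTGAA or TTCGAA, and the E2F letters TTTCCCGC, TTTCGCGC, TTTGCCGC or TTTGGCGC, again on either strand. The first 6 are G2/M genes, and Mcm5 and Mcm6 are S-phase genes.
Ccnb1, chr13:100786487-100786636, minus strand: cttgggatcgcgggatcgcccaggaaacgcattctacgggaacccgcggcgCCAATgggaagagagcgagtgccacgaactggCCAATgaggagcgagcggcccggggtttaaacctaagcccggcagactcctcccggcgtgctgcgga
Ccnb2, chr9:70421555-70421704, minus strand: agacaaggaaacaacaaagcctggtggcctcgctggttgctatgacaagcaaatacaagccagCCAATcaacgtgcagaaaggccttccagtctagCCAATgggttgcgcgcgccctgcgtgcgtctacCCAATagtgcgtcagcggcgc
Cdc20, chr4:118437344-118437493, minus strand: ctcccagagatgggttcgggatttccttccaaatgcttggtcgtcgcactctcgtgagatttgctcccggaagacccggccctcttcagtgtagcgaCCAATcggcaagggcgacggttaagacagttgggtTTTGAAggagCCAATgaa
Cdk1, chr10:69352913-69353062, minus strand: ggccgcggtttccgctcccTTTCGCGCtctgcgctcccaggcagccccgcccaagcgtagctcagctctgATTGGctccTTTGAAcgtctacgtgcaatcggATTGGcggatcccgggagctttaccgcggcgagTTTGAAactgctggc
Mki67, chr7:135716380-135716529, minus strand: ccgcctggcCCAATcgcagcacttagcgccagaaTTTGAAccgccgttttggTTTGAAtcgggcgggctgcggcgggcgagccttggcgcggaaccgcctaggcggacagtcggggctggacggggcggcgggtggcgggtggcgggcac
Cenpf, chr1:189688087-189688236, minus strand: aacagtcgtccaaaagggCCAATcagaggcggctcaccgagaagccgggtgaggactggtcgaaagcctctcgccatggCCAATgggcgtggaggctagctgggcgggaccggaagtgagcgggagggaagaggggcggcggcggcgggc
Mcm5, chr8:75109359-75109508, plus strand: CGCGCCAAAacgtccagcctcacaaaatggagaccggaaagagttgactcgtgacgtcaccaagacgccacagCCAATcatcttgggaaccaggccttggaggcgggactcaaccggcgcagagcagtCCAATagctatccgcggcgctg
Mcm6, chr1:128359706-128359855, minus strand: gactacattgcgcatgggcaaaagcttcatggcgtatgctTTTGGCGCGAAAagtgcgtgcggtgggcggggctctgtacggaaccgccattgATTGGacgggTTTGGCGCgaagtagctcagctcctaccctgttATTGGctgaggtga

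In the 250 bases before the start, CCAAT stood in 15 of the 16 G2/M genes with a window, all but Birc5, and in 7 of the 9 S-phase genes. Among 32851 mouse windows of that length, 33.8% held CCAAT, and 35% of those of genes tested did. At least 2 boxes stood in 11 of the 16 G2/M genes and 4 of the 9 S-phase genes, against 9.91% of all windows. In Ccnb2 3 boxes followed each other at 33 and 33 bases, and in Ccnb1 a pair stood 32 bases apart. Aurka and Cdk1 also held a pair 32 bases apart, and Ube2c and Cdca8 held pairs at 31 and 34 bases. Other G2/M pairs differed, such as those of Bub1, Cdc20 and Cenpf at 26, 45 and 61 bases. In the S-phase genes Mcm3, Mcm5 and Mcm6 neighbouring boxes stood 40 to 55 bases apart. How often such spacings occur over all windows was not counted. CHR letters stood in 8 of the 16 G2/M genes, including Cdk1, Cdc20, Mki67 and Top2a, and in 2 of the 9 S-phase genes, against 17.1% of all windows. The E2F letters stood in 3 of the 9 S-phase genes (Mcm5, Mcm6 and Mcm7) and 1 of the 16 G2/M genes (Cdk1), against 1.86% of all windows. These counts by class were not tested. In Mcm6 and Mcm5 a pair of E2F matches on opposite strands overlapped, and the Mcm5 stretch above opens inside the first of them. Each match is a description of letters, not of a bound site. Over the libraries Mki67, with 2 CHR matches, varied 6.29-fold in CPM, Cdk1, also with 2, 1.38-fold, and Cenpf, with none, 6.31-fold; the relation of these letters to variation between libraries was not tested.

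None of the 31 genes passed the test between genotypes, and none of the 17262 genes tested did (0%; edgeR with Benjamini-Hochberg adjustment at 0.05). DESeq2 called 1 gene (0.00579%), which was not a member. At an unadjusted edgeR p under 0.05 stood 466 genes (2.70%), of which 171 were higher (0.991%), and 0 members. Adjusted p of the members ran between 0.884 and 0.993, and the smallest unadjusted p was 0.0966, for Cenpf. Fitted log2 fold changes were above 0 for 19 of the 21 G2/M genes (90.5%) and 4 of the 10 S-phase genes, against 51.0% of all genes. Their median was 0.21 for G2/M genes, with a range of -0.08 to 1.43, and 0.01 for all genes tested. Without WT replicate 1 the G2/M median was -0.08, and 14 of the 31 members instead of 23 were fitted higher. The S-phase median was -0.13, with a range of -0.38 to 0.62; with limma on log2(TPM + 1) it was 0.11, where the median of all genes was 0.18. Both Tex11PM/Y libraries lay above both WT libraries for 5 members (16.1% of all genes did so) and below them for 2 (16.3%). Non-overlap of either kind held for 22.6% of the members and 32.4% of all genes.

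**Figure D2:**
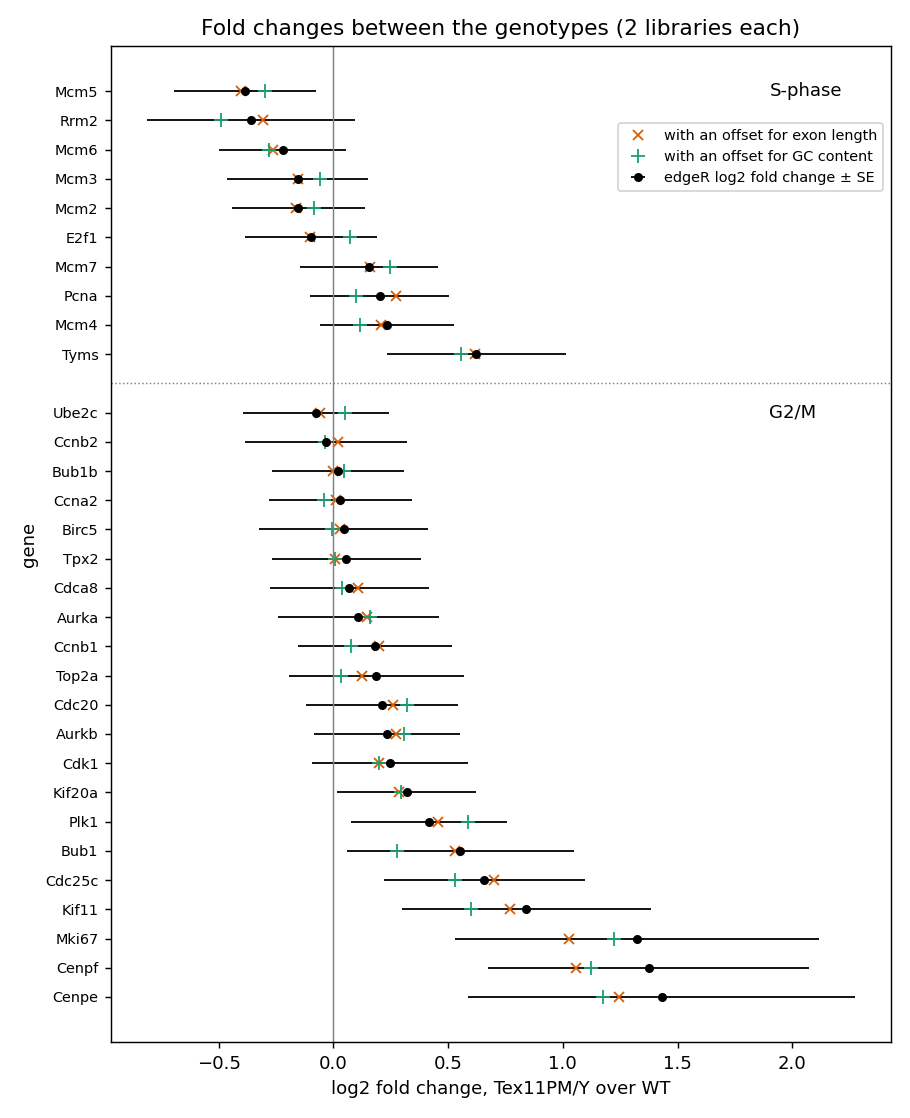
edgeR log2 fold change of Tex11PM/Y over WT (x axis) with its SE for each gene (y axis), ordered within class; crosses and plus signs give the same fit with an offset for exon length or GC content. Most G2/M genes lie between 0 and 0.7, Cenpe, Cenpf and Mki67 lie above 1 with the widest error bars, and the S-phase genes lie on both sides of 0.

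The 5 most abundant S-phase genes were all subunits of the MCM2-7 helicase, which unwinds DNA at the fork. By FPKM, Mcm2 led with 100.5 ± 8.59 FPKM over the 4 libraries (SD, n = 4), followed by Mcm7 with 95.6 ± 17.0 and Mcm3 with 91.2 ± 9.46 FPKM. Mcm5 had 75.4 ± 12.5 FPKM, Mcm6 71.2 ± 4.90 and Mcm4 41.1 ± 7.72 FPKM. The first 3 overlap within their spread, and so do Mcm5 and Mcm6, while Mcm4 was the lowest subunit in all 4 libraries. Their products assemble into one ring with a copy of each.

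**Figure D3:**
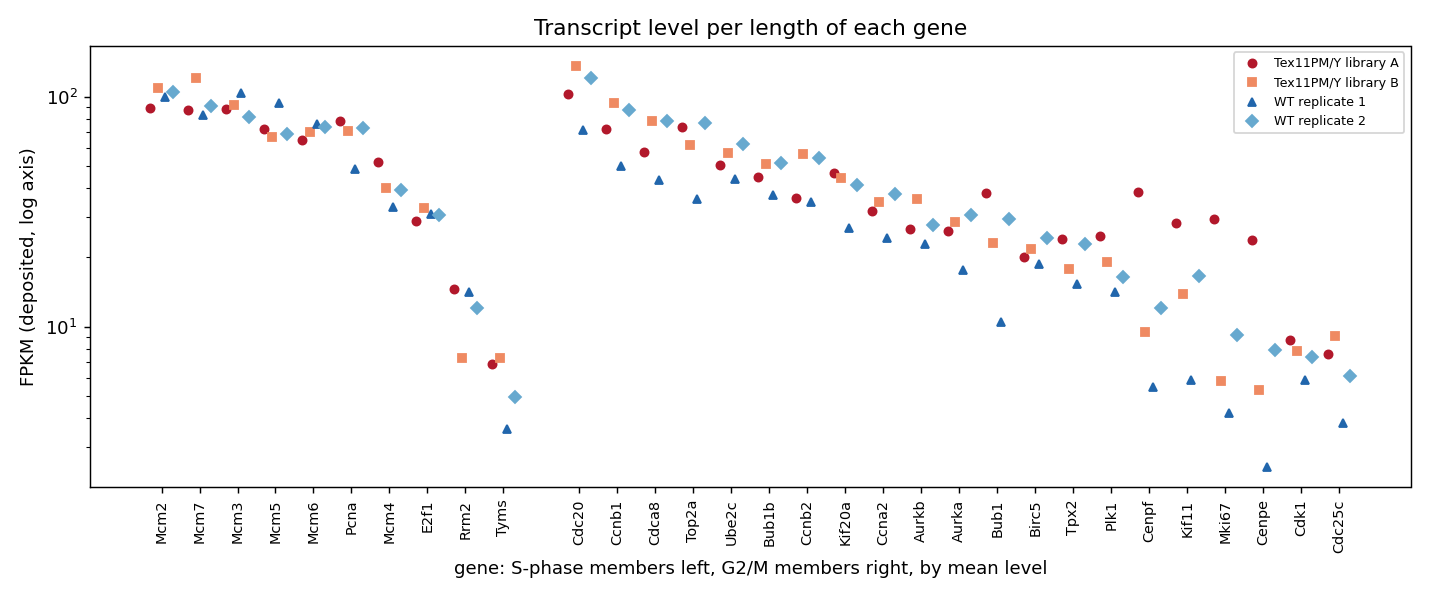
Deposited FPKM (log y axis) of each gene (x axis) in each library, S-phase genes left and G2/M genes right, each ordered by mean level. Cenpf, Kif11, Mki67, Cenpe and Bub1 spread widely, with library A highest and WT replicate 1 lowest, while most other genes lie close together.

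Mcm5 (chr8:75109569-75128439, plus strand, mm10) had 246 and 234 CPM in A and B, against 372 and 254 CPM in WT replicates 1 and 2. Both Tex11PM/Y libraries were below both WT libraries, with WT replicate 1 far above the other 3 libraries (log2 fold change -0.38, SE 0.31). Genes of chromosome 8 had a median of 0.40 log2 in WT replicate 1 above the mean of the other libraries, and Mcm5 is the only member on that chromosome. Mcm6 had 241 and 243 CPM in A and B, against 299.8 and 264 CPM in WT, again without overlap (log2 fold change -0.22, SE 0.28). Mcm2 had 357 and 425 CPM in A and B and 444 and 424 CPM in WT, so B lay level with WT. Mcm3 had 315 and 322 CPM in A and B, within the 415 and 296 CPM of WT. The remaining subunits had their high value in a Tex11PM/Y library: Mcm4 had 222 and 166 CPM in A and B and 158 and 172 CPM in WT. Mcm7 had 307 and 415 CPM in A and B and 327 and 322 CPM in WT. Neither gene separated the genotypes. Exons of Mcm7 overlap exons of Ap4m1 and Cops6 on the other strand, and the kit is not stated to keep strand.

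The remaining S-phase genes make or use what the fork needs. Pcna, the sliding clamp, had 140.1 and 126 CPM in A and B and 97.4 and 134 CPM in WT, where replicate 1 was the low library; its processed copy Pcna-ps2 had at most 66 counts in a library. E2f1, the activating transcription factor of the G1/S genes, had 94.5 and 105 CPM in A and B and 113 and 100.5 CPM in WT, the narrowest range of any member at 1.19-fold. Rrm2, the small subunit of ribonucleotide reductase, had 38.7 and 18.5 CPM in A and B and 40.9 and 32.6 CPM in WT. Library B alone was low for Rrm2, and the genotypes overlapped. Rrm2 lies on chromosome 12, whose genes had a median of 0.57 log2 in WT replicate 2 above the mean of the other libraries, though WT replicate 2 is a library in which Rrm2 was not the highest. Tyms, thymidylate synthase (chr5:30058827-30073617, minus strand), had 26.6 and 27.4 CPM in A and B, against 15.6 and 19.4 CPM in WT replicates 1 and 2. It was the only S-phase gene with both Tex11PM/Y libraries above both WT libraries, and its log2 fold change of 0.62 (SE 0.39) was the largest of its class. It did not pass (edgeR adjusted p = 0.884), and its 95% interval ran between -0.30 and 1.54. Leaving out each library in turn gave log2 fold changes between 0.46 and 0.77. The nucleotide genes were the least abundant of the class, with 12.0 ± 3.31 FPKM for Rrm2 and 5.67 ± 1.72 FPKM for Tyms (SD, n = 4).

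The cyclins and the kinase that drive entry into mitosis differed little apart from a low WT replicate 1. Ccnb1, the B-type cyclin that activates CDK1 at mitotic entry (chr13:100778650-100786570, minus strand), had 211 and 268 CPM in A and B and 162 and 259.7 CPM in WT. Ccnb2, its close relative, had 67.3 and 101 CPM in A and B and 70.9 and 101 CPM in WT; B and WT replicate 2 were level, and A and WT replicate 1 shared the low values. Ccna2, the cyclin of S-phase and G2, had 104 and 111 CPM in A and B and 87.2 and 123 CPM in WT. None of these cyclins separated the genotypes, and their log2 fold changes lay between -0.03 and 0.18. Cdk1 had 46.6 and 41.0 CPM in A and B, against 33.8 and 40.0 CPM in WT replicates 1 and 2. The Cdk1 groups did not overlap, though B and WT replicate 2 were nearly level, and the log2 fold change was 0.25 (SE 0.34). By FPKM, Cdk1 stood at 7.45 ± 1.21 and Ccnb1 at 75.8 ± 19.7 FPKM (SD, n = 4), so the kinase transcript was far below that of its cyclin.

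The activators of CDK1 gave some of the separated values. Cdc25c, the phosphatase that removes inhibitory phosphates from CDK1, had 19.3 and 21.1 CPM in A and B, against 10.5 and 15.1 CPM in WT replicates 1 and 2. Both Tex11PM/Y libraries were above both WT libraries (log2 fold change 0.66, SE 0.44, edgeR adjusted p = 0.884), and the 95% interval ran between -0.37 and 1.69. It was the least abundant member in counts, with 187 in WT replicate 1, where counting error alone is 7.31%. Plk1, the polo kinase that acts from mitotic entry to cytokinesis, had 57.5 and 44.2 CPM in A and B, against 36.6 and 39.5 CPM in WT. Its groups were apart as well (log2 fold change 0.42, SE 0.34, edgeR adjusted p = 0.884).

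The Aurora kinases and the chromosomal passenger complex overlapped between the genotypes, with WT replicate 1 the lowest library for each gene. Aurka, which works at spindle poles, had 59.0 and 63.2 CPM in A and B and 44.0 and 69.4 CPM in WT. Tpx2, the spindle factor that activates it, had 107 and 78.0 CPM in A and B and 77.4 and 101 CPM in WT. Aurka varied 1.58-fold over the libraries and Tpx2 1.38-fold. Aurkb, the kinase of the passenger complex, had 62.6 and 83.2 CPM in A and B and 59.1 and 65.0 CPM in WT. Birc5 (survivin), which anchors that complex, had 32.5 and 28.8 CPM in A and B and 26.4 and 33.1 CPM in WT. Cdca8 (borealin) had 113 and 149 CPM in A and B and 94.7 and 154 CPM in WT. Of these 3 Cdca8 varied most, 1.63-fold, and log2 fold changes lay between 0.05 and 0.23.

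The spindle checkpoint and the anaphase-promoting complex split by gene. Cdc20, the activator of that complex, was the most abundant G2/M gene at 108 ± 27.6 FPKM (SD, n = 4); it had 217 and 282 CPM in A and B and 171 and 261 CPM in WT. Ube2c, the ubiquitin-conjugating enzyme of the complex, had 58.7 and 63.9 CPM in A and B and 56.6 and 72.6 CPM in WT. Bub1b (BubR1), the checkpoint protein that restrains Cdc20, had 196 and 218 CPM in A and B and 181 and 228 CPM in WT. These 3 overlapped between genotypes and varied by 1.26-fold to 1.65-fold over the libraries. Bub1, the checkpoint kinase at kinetochores (chr2:127801122-127831865, minus strand), varied 3.30-fold: 159 and 93.6 CPM in A and B, against 48.3 and 124 CPM in WT. Library A was its highest and WT replicate 1 its lowest, with B and WT replicate 2 in the opposite order to these (log2 fold change 0.55, SE 0.49). Its log2 fold change was 0.002 without WT replicate 1 and 1.36 without WT replicate 2.

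The widest differences between libraries were those of the Ki-67 gene, the kinetochore genes and a spindle motor. Cenpf, a large kinetochore protein (chr1:189640606-189688086, minus strand), had 507 and 123 CPM in A and B, against 80.3 and 163 CPM in WT replicates 1 and 2. Library A was 6.31-fold above WT replicate 1 and 4.11-fold above library B, while B lay below WT replicate 2. Group means were 315 ± 271 CPM in Tex11PM/Y and 122 ± 58.5 CPM in WT (SD, n = 2 each), and the log2 fold change was 1.37 (SE 0.70, edgeR adjusted p = 0.884).

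Mki67, whose product coats mitotic chromosomes and marks proliferating cells (chr7:135689784-135716361, minus strand), had 350.0 and 68.5 CPM in A and B, against 55.6 and 112 CPM in WT. Again library A alone was high, 5.11-fold above library B, and the genotypes overlapped (log2 fold change 1.32, SE 0.79). Cenpe, the kinetochore kinesin that moves chromosomes to the spindle equator (chr3:135212537-135273611, plus strand), had 224 and 49.2 CPM in A and B, against 25.5 and 76.0 CPM in WT. It varied most of all members, 8.80-fold between A and WT replicate 1 (log2 fold change 1.43, SE 0.84). Leaving out library B, which leaves 1 Tex11PM/Y library assumed to vary like the WT pair, 3 members passed: Mki67 (edgeR adjusted p = 0.0153), Cenpf (edgeR adjusted p = 0.0168) and Cenpe (edgeR adjusted p = 0.0428). In that fit 518 of 18765 genes passed (2.76%), 74 higher and 444 lower. Without library A their log2 fold changes were -0.29 for Mki67, -0.04 for Cenpe and 0.02 for Cenpf. The higher Tex11PM/Y means of these 3 genes thus rest on library A, the library with the lowest fibroblast marker share.

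Kif11, the kinesin that pushes spindle poles apart (chr19:37376403-37421859, plus strand), had 165 and 78.3 CPM in A and B, against 37.6 and 97.9 CPM in WT. Its order of libraries was that of Cenpf, A above WT replicate 2 above B above WT replicate 1 (log2 fold change 0.84, SE 0.54). Its log2 fold change was 0.21 without library A, 0.28 without WT replicate 1 and 1.66 without WT replicate 2. Top2a, the topoisomerase that untangles sister chromatids, had 462 and 378 CPM in A and B and 251 and 487 CPM in WT. For Top2a only WT replicate 1 stood apart, and library A was not the highest. Kif20a, the motor of the central spindle, had 140.3 and 125 CPM in A and B, against 90.1 and 122 CPM in WT, without overlap between the groups (log2 fold change 0.32, SE 0.30, edgeR adjusted p = 0.884). Exons of Kif20a overlap exons of Cdc23 on the other strand, and whether the counting used strand is not given.

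**Figure D4:**
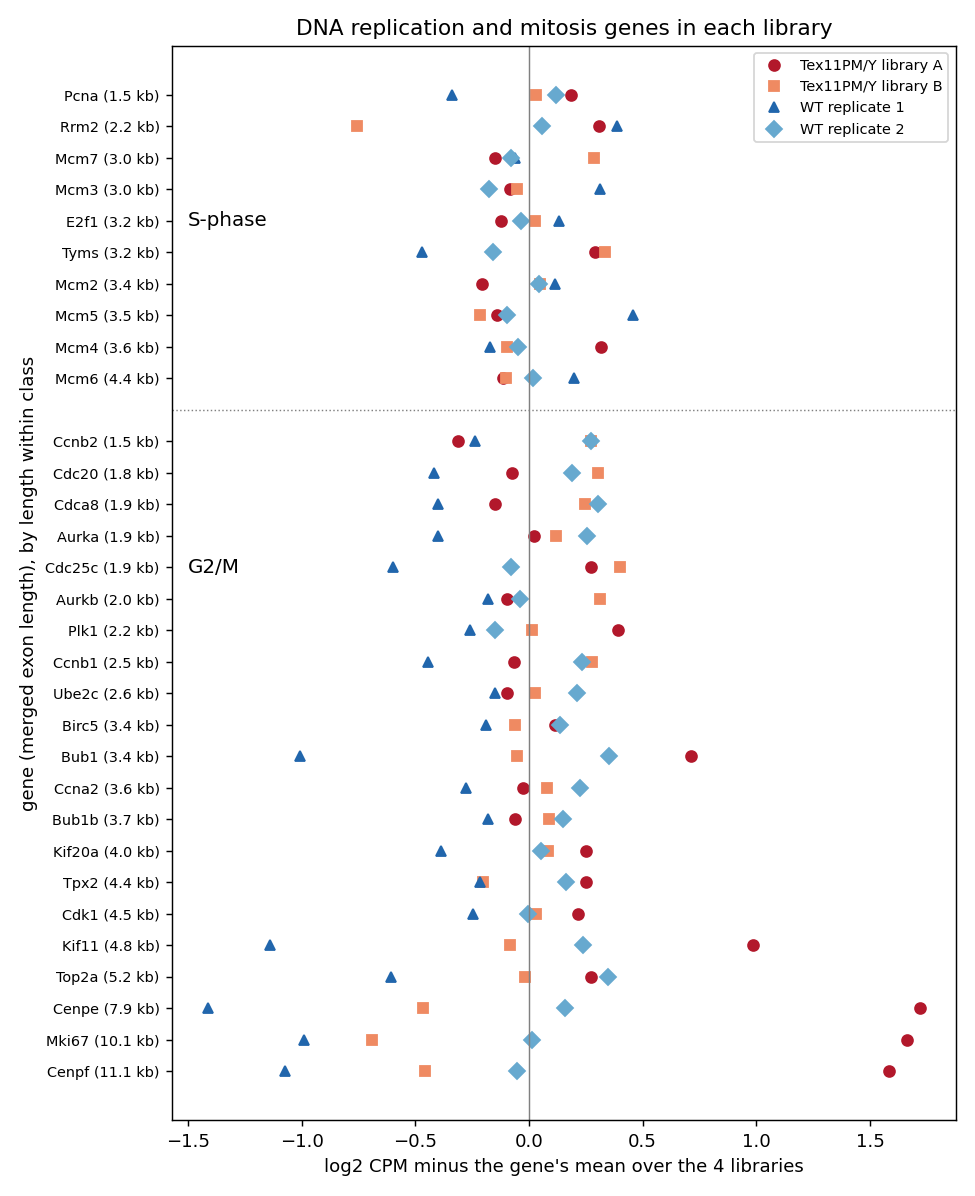
log2 CPM of each gene in each library minus the gene's mean over the 4 libraries (x axis); genes run down the page (y axis) by merged exon length within class. WT replicate 1 is the leftmost point for 20 of the 21 G2/M genes. Library A is far right for Cenpe, Mki67 and Cenpf, the genes with the longest merged exons.

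The members that varied most, Cenpe, Cenpf, Mki67 and Kif11, had long merged exons, which need not equal the length of the transcripts present. Merged exons came to 11130 bases for Cenpf, 10061 for Mki67, 7910 for Cenpe and 4819 for Kif11. Length and variation did not always go together: Top2a, with 5221 bases, varied 1.94-fold, Bub1, with 3421 bases, 3.30-fold, and Rrm2, with 2193 bases, 2.21-fold. Among the 7 G2/M genes of 4000 bases or more, the median of library A minus the mean of the other libraries was 1.32 log2, and that of WT replicate 1 was -1.32 log2. All 5784 genes of that length tested had medians of 0.18 for library A and -0.16 for WT replicate 1. Among the 8 G2/M genes under 2500 bases, the medians were -0.09 for library A and -0.53 for WT replicate 1. Library A thus stood out among long G2/M genes, whereas WT replicate 1 was low among short ones too. Only 1 S-phase member, Mcm6, had 4000 bases or more, so class and length cannot be told apart among the long members. Across the 21 G2/M genes, exon length and library A minus the others had a Pearson r of 0.84 and a Spearman rho of 0.74. Across the 16881 genes tested that had a GC value, r was 0.06 and rho 0.13. These describe genes within the same libraries, which are not independent replicates.

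**Figure D5:**
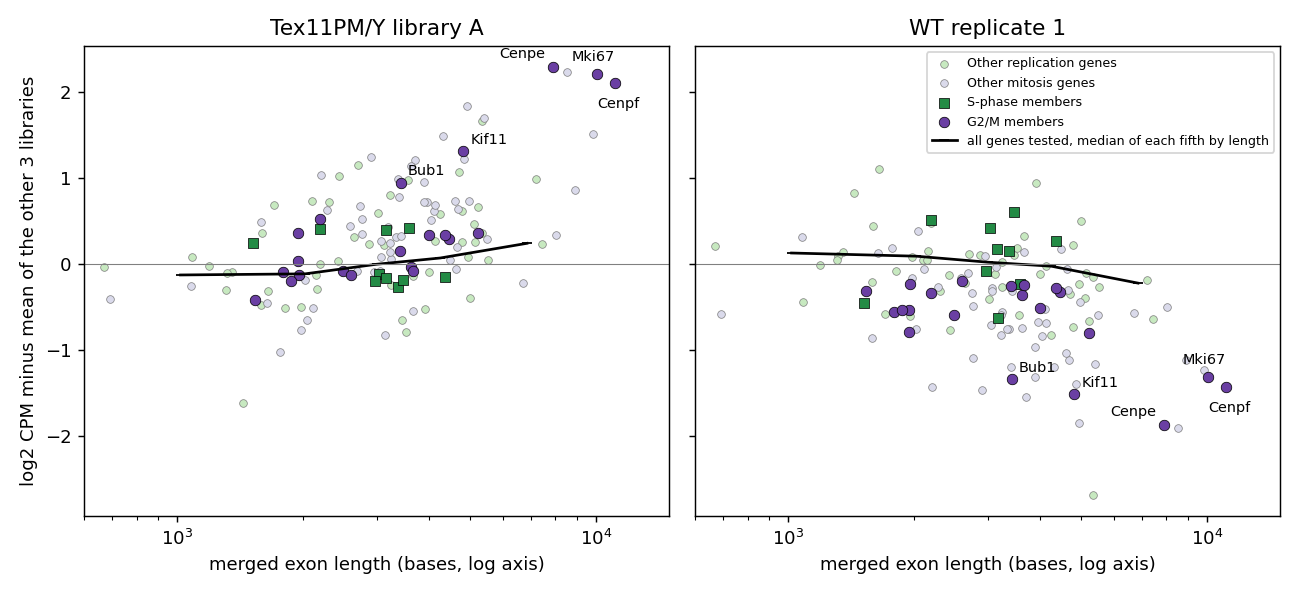
log2 CPM of library A, left, and of WT replicate 1, right, minus the mean of the other 3 libraries (y axis) against merged exon length (log x axis), 1 point per gene. Cenpe, Cenpf, Mki67 and Kif11 lie above 1 in library A and below -1 in WT replicate 1, further from 0 than the black line, which joins the medians of all genes tested in 5 classes of length.

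GC content varied with the same values. In 5 equal classes of all genes by GC content, the lowest class had median deviations from the gene means of 0.41 log2 in library A and -0.31 in WT replicate 1. In the highest class the medians were -0.21 for library A and 0.22 for WT replicate 1. The 31 members gave a Pearson r of -0.55 between GC content and library A minus the others, and of -0.40 between GC content and exon length. For the 16881 genes tested that had a GC value, the r between GC content and library A minus the others was -0.26. With an offset for the length trend of all genes, the log2 fold changes of Cenpe, Cenpf and Mki67 were 1.25, 1.06 and 1.03, and with an offset for GC they were 1.18, 1.12 and 1.23. Under the length offset 23 of the 31 members were fitted higher, against 49.7% of all genes. The S-phase minus G2/M difference between genotypes was -0.37 with the length offset, against -0.39 without it. The part of RNA or library quality in the long genes was not tested.

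The members ranged less between libraries than all genes tested, in a comparison not matched for abundance. No member had under 187 counts in a library, and genes with fewer counts carry more counting error. Their highest and lowest libraries were more than 2-fold apart for 6 of 31 (19.4%): Rrm2, Mki67, Bub1, Kif11, Cenpe and Cenpf. That share was 52.8% over all genes tested. The median range over libraries was 0.49 log2 for S-phase genes, 0.66 for G2/M genes and 1.05 for all genes.

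Further genes of these pathways, from lists written for this purpose, are given in the same way. Of 55 other mitosis genes, 42 were fitted higher, 13 lower and 0 passed; 41 were lowest in WT replicate 1 and 34 were highest in library A, a library that was highest for 35.0% of all genes. Their median log2 fold change was 0.30. Knl1, the kinetochore scaffold that binds Bub1, had 70.3 and 19.4 CPM in A and B and 8.03 and 21.04 CPM in WT. Sgo2a, which protects centromeric cohesin, had 93.4 and 30.5 CPM in A and B and 13.6 and 42.6 CPM in WT. Smc2, a condensin subunit, had 189 and 55.96 CPM in A and B and 42.3 and 81.7 CPM in WT, so all 3 had the library order of Cenpf. At the other end Pkmyt1, with the lowest log2 fold change, had 12.8 and 18.5 CPM in A and B and 22.1 and 20.3 CPM in WT. Next came Pttg1 (securin), which had 19.9 and 42.3 CPM in A and B and 37.5 and 42.7 CPM in WT, low in library A alone. Cdca3 had 32.6 and 59.35 CPM in A and B and 44.8 and 64.9 CPM in WT. Across the 55 genes, exon length and library A minus the others had an r of 0.55 and a rho of 0.53.

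Of 49 other replication genes, 29 were fitted higher, 20 lower and 0 passed, with a median of 0.04. Among them 17 were lowest in WT replicate 1 and 23 were highest in library A, against 34.4% and 35.0% of all genes. Across the 49 genes, exon length and library A minus the others had an r of 0.36 and a rho of 0.37. Pola1, the catalytic subunit of the priming polymerase, had 53.4 and 23.5 CPM in A and B and 5.45 and 36.5 CPM in WT. Tk1, thymidine kinase, had 11.03 and 30.8 CPM in A and B and 39.6 and 32.6 CPM in WT, low in library A alone. Dbf4, which activates the CDC7 kinase at origins, had 165 and 88.9 CPM in A and B and 64.8 and 92.95 CPM in WT. Of 17 E2F and pocket protein genes, 10 were fitted higher, 7 lower and 0 passed, with a median of 0.09. Rb1, the retinoblastoma protein, had 134 and 98.1 CPM in A and B, against 56.2 and 87.4 CPM in WT, without overlap. Rbl2, the pocket protein p130, had 3.17 and 3.84 CPM in A and B, against 12.9 and 4.80 CPM in WT, also without overlap, with WT replicate 1 high. Rbl2 lies on chromosome 8, whose genes were higher in that library, as given for Mcm5.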

How the data were processed

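Poly(A) RNA of 2 Tex11PM/Y and 2 WT libraries was counted per gene by the authors. Tools in the submitters' processing notes are StringTie, featureCounts, STAR, fastp and DESeq2, without roles or versions, and the build is mm10. The authors deposited raw read counts for 55335 genes. They also deposited FPKM and TPM values for 37653 genes, units named in the file headers. Neither the annotation release nor the use of strand is given in the sources used here.

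The quasi-likelihood test of edgeR 4.0.16 (R 4.3.3) was run on the counts after filterByExpr and TMM scaling, with robust fits of genotype alone. P-values of 17262 genes were adjusted by Benjamini-Hochberg. CPM used TMM library sizes; log2 CPM used a prior count of 2. At this depth 3 counts correspond to between 0.149 and 0.169 CPM; such limits cover counting error only. The biological coefficient of variation was 43.4%. Chi-square per degree of freedom was 96.5 between the Tex11PM/Y libraries and 94.8 between the WT libraries, so neither pair is a repeat within counting noise. Coordinates are those of the count table (mm10); promoters are RefSeq windows of GRCm38.p6. The fit was run on simulated data with a smaller spread than the 43.4% found here, so its recovery at that spread was not tested.

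The members and lists were chosen with earlier results of these data known. All members are named; from the other lists the rule took any gene past the threshold and the 3 largest fitted changes in each direction, of which some are printed, plus fixed cell markers. Alternatives were the DESeq2 1.42.0 test, scaling by DESeq2 size factors or by library size only, testing without a filter or with at least 1 CPM in 2 libraries, limma 3.58.1 on log2(FPKM + 1), log2(FPKM + 0.1) and log2(TPM + 1), and leaving out each library. Offsets for exon length and GC content (lowess span 0.3) were added after the data were seen.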

Additional observations from a re-analysis of the deposited data

How the results depend on the processing

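No paired analysis was possible because both Tex11PM/Y columns carry the same replicate number. The number of genes called was 0 with edgeR, 50 with no filter on low counts (16 higher, 34 lower, 0 members), 1 with DESeq2, and 0 to 518 on leaving out a library. The 518 of 18765 genes (74 higher, 444 lower) came without library B and included 3 members, against 0 otherwise. The S-phase median of -0.125 was -0.056 with library size alone, -0.014 with limma on log2(FPKM + 1), filtered or not, and on log2(FPKM + 0.1), 0.105 on log2(TPM + 1), where all genes had a median of 0.184, 0.006 with the GC offset, and -0.201 to -0.025 leaving out a library. The G2/M median ran from -0.078 (without WT replicate 1) to 0.454 (without WT replicate 2). The S-phase minus G2/M difference between genotypes ran from -0.766 (without WT replicate 2) to -0.019 (without WT replicate 1).

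Log2 fold changes near 0 changed sign: Ccnb2 to 0.019 with library size alone and 0.021 with the length offset, and Bub1b to -0.01 with no count filter and -0.001 with the length offset. With limma on log2(FPKM + 1), filtered or not, E2f1 gave 0.006, Ccnb2 0.049, Birc5 -0.021 and Ube2c 0.030; on log2(FPKM + 0.1) E2f1 gave 0.006, Ccnb2 0.050, Birc5 -0.021 and Ube2c 0.031. On log2(TPM + 1), Mcm2 gave 0.069, Mcm3 0.086, E2f1 0.124, Ccnb2 0.168 and Ube2c 0.149. With the GC offset, E2f1 gave 0.071, Ccna2 -0.042, Birc5 -0.008 and Ube2c 0.052. The cause was not tested.

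Leaving out each library gave ranges of 0.002 to 1.364 for Bub1, 0.210 to 1.662 for Kif11, -0.401 to 0.089 for Mcm3, -0.126 to 0.358 for Mcm7, -0.030 to 0.427 for Pcna, -0.988 to 0.030 for Rrm2, -0.285 to 2.022 for Mki67, -0.234 to 0.718 for Top2a, -0.135 to 0.543 for Ccnb1, -0.399 to 0.233 for Ccnb2, -0.217 to 0.282 for Ccna2, -0.204 to 0.454 for Aurka, -0.032 to 0.424 for Aurkb, -0.156 to 0.176 for Bub1b, -0.078 to 0.529 for Cdc20, -0.130 to 0.197 for Birc5, -0.042 to 2.391 for Cenpe, 0.023 to 2.015 for Cenpf, -0.258 to 0.446 for Cdca8, -0.188 to 0.234 for Tpx2 and -0.264 to 0.096 for Ube2c. With 2 libraries per genotype, the 95% intervals of all members included 0.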
